A study of Mus musculus with 12 samples.

Results

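The genes described here are 7 that have been proposed to cooperate with the leukaemia fusion CBFB-MYH11, namely Mn1, Plag1, Plagl1, Plagl2, Il1rl1, Ogg1 and Id1. All probe sets annotated with 1 symbol equal to one of these names were taken, which gave 13 of 34945 single-symbol probe sets, for 6 of the 7 genes. Il1rl1 had no such probe set and was not analysed here. Expression was measured on 12 Affymetrix mouse arrays, 1 per sample, in primitive blood progenitors of normal mouse bone marrow. The sort took cells without lineage markers or Flt3 that carried both c-Kit and Sca-1. They were cultured for 24 h with 10% serum, stem cell factor (50 ng/ml) and IL-6 (5 ng/ml) and exposed to a retrovirus for 4 h. After a further 20 h the cells positive for the green fluorescent marker GFP were sorted and their RNA was isolated.

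The INV16 group, of 4 arrays (replicates 1 to 4), carried a retrovirus that encodes the fusion. The ACD mutant group, of 3 arrays (replicates 1 to 3), carried a version lacking its assembly competent domain, which the design text calls non-leukemogenic. The MIB control group, of 5 arrays (replicates 3 to 7), carried the vector with no insert. All groups share the sort, the cytokines and the virus exposure, so the values describe forced expression from a retrovirus 24 h after transduction began and not an established leukaemia. Per the design text, the sort, the transduction and the array work were repeated for every replicate.

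The fusion arises from inversion of human chromosome 16 in acute myeloid leukaemia and joins CBFB, the non-DNA-binding subunit of core binding factor, to the tail of a smooth-muscle myosin. It blocks blood cell differentiation but needs further events to cause leukaemia in mice. MN1 is a transcriptional cofactor that is overexpressed in inv(16) leukaemia. PLAG1 and PLAGL2 are zinc-finger transcription factors of the PLAG family that were found by retroviral insertion in mice carrying the fusion, and PLAGL1 is the imprinted, growth-restraining member of that family. IL1RL1 is the receptor of IL-33, OGG1 removes oxidised guanine from DNA, and ID1 blocks the DNA binding of basic helix-loop-helix E proteins.

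One array, INV16 replicate 4, was unlike the rest. Across probe sets it correlated with them at 0.895 to 0.917, against 0.985 to 0.996 among the other 11. Its summed level of 12 mast cell and basophil markers was 16.14 log2, against 12.24 to 13.31 on the others. Not all of these markers were higher on it. Mcpt8 was at 5.35, against 9.39 to 10.24 on the others, and Kit, at 10.99, was inside their range. Its level of the progenitor gene Cd34 was 7.39, against 11.15 to 12.35. The rule that set the comparisons kept INV16 replicate 4 apart, with earlier results of these data known. The main comparisons were thus made over the other 11 arrays, with the value of replicate 4 given apart. Some fits of all 12 arrays are given beside them. On those 11 arrays the sort marker gene Kit was well measured, at 10.26 to 11.43 log2. Flt3, whose protein the sort selected against, had a transcript level of 8.03 to 9.76. Of 12 mast cell and basophil markers 7 were past the expression filter, among them Cpa3 (9.31 to 11.38) and Ms4a2 (7.76 to 10.61), and Cma1 and Fcer1a were below it. Of 6 erythroid markers measured 2 were past it, Klf1 (6.21 to 7.31) and Epor (6.73 to 8.30).

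The arrays also fell into 2 batches by how far the spike-in BioC exceeded the spike-in BioB, both added bacterial transcripts. Batch A (1.17 to 1.32 log2) held INV16 replicates 1 to 3 and MIB control replicates 3 to 5. Batch B (-0.03 to 0.19) held all ACD mutant arrays, MIB control replicates 6 and 7 and INV16 replicate 4. INV16 and ACD mutant thus share no batch once replicate 4 is apart, and batch and group can be separated for them only through MIB control. Batch B was not uniform in the level of BioB. That level was 7.25 to 7.65 log2 in ACD mutant and 7.92 in INV16 replicate 4, against 8.70 and 8.91 in MIB control replicates 6 and 7. In batch A it was 8.51 to 8.97. How well those 2 controls stand for the batch of the ACD mutant arrays was not tested. The Gapdh 3' probe set exceeded its 5' probe set, as it does more in degraded RNA, by 1.096 to 1.53 log2 in INV16 replicates 1 to 3, 1.63 to 3.17 in ACD mutant and 1.34 to 1.76 in MIB control. INV16 replicate 4, at 3.64, was above every other array. In bulk RNA, fewer cells that express a gene and less RNA per cell cannot be told apart.

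A gene was called where limma, fitted to 12897 genes past a filter on low values (a mean above 5.07 log2), gave a Benjamini-Hochberg adjusted p under 0.05. Of the 7 genes, 4 were past that filter: Mn1, Plagl2, Ogg1 and Id1. In INV16 against MIB control 1 of the 4 was called, where 1.64% of all genes tested were. In ACD mutant against MIB control 0 of the 4 were called by limma, where 1.68% of all genes were, and 1 of them, Plagl2, had an unadjusted p under 0.05 (0.0178), where 19.5% did. In INV16 against ACD mutant 2 of the 4 were called, where 2.04% were. With all 12 arrays 0.155%, 0% and 0.0387% of genes were called in those 3 comparisons, and with the batch as a block 1%, 0.155% and 0%. The filter kept each gene for its mean over the 11 arrays, and 4 genes are too few for these shares to describe the list. The plot of member levels shows all 13 probe sets on every array.

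**Figure D1:**
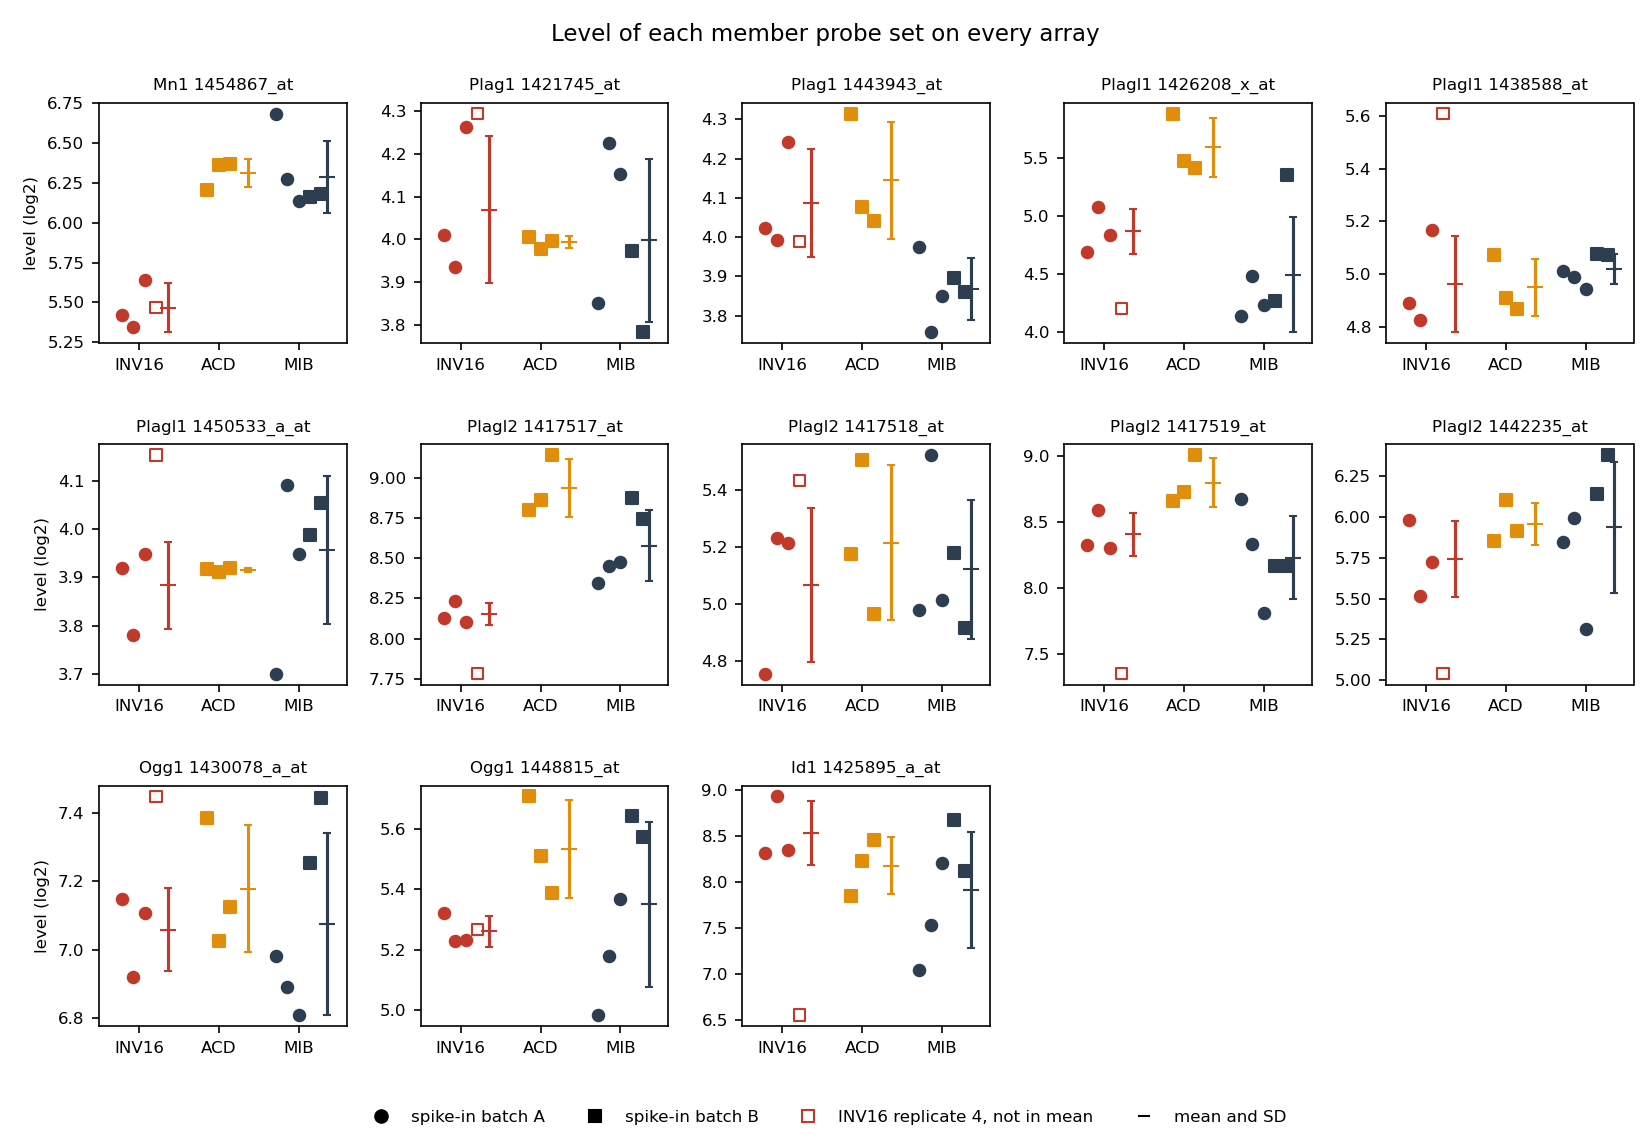
Level (log2) of each of the 13 probe sets on every array of INV16, ACD mutant (ACD) and MIB control (MIB), with circles for spike-in batch A, squares for batch B, an open square for INV16 replicate 4, and a bar for the mean and SD of the other arrays. Mn1 was lower on all INV16 arrays than on any other array, and each panel has its own scale.

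Mn1 (chr5:111417300-111457030 in RefSeq, GRCm38.p6) was the 1 member called in both comparisons of INV16. It was 1.76-fold lower in INV16 than in MIB control and 1.80-fold lower than in ACD mutant. Probe set 1454867_at measured 5.42, 5.34 and 5.64 log2 in INV16 replicates 1 to 3, 6.21, 6.36 and 6.37 in the 3 ACD mutant replicates, and 6.69, 6.27, 6.14, 6.16 and 6.18 in MIB control replicates 3 to 7. No INV16 array reached the lowest array of either other group, and INV16 replicate 4, at 5.47, lay among its own group. The ACD mutant arrays lay within the range of MIB control. Groups that did not overlap were seen for 9.23% of all genes tested in INV16 against MIB control, 12.7% in ACD mutant against MIB control and 28.7% in INV16 against ACD mutant.

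The group means of Mn1 were 5.47 ± 0.15 in INV16 (SD, n = 3), 6.31 ± 0.09 in ACD mutant (SD, n = 3) and 6.29 ± 0.23 in MIB control (SD, n = 5). Mn1 fell in INV16 against MIB control by 0.82 on the log2 scale (SE 0.13, limma adjusted p = 0.00969). Against ACD mutant it fell by 0.84 (SE 0.15, limma adjusted p = 0.0158). ACD mutant and MIB control differed by 0.03 (95% interval -0.26 to 0.31, limma adjusted p = 0.948), an interval that leaves out a fall of the size seen in INV16. With all 12 arrays the first difference stayed at -0.82 (adjusted p = 0.0371), and the second was -0.84 but was not called (adjusted p = 0.0745).

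Within batch A, Mn1 was 5.34 to 5.64 in INV16 and 6.14 to 6.69 in MIB control, a difference of -0.90 that was not called over those 6 arrays alone (limma adjusted p = 0.0757), where 0.233% of genes were. Blocking on the batch also gave -0.90, and this was called (adjusted p = 0.0120). The same fit put INV16 against ACD mutant at -1.04 (adjusted p = 0.155). Without INV16 replicate 1 the difference from MIB control was -0.80 (adjusted p = 0.0715) and without replicate 2 it was -0.76 (0.0557). The difference from ACD mutant was not called without INV16 replicate 1 (adjusted p = 0.0624) or 2 (0.0711) or without ACD mutant replicate 2 (0.0801) or 3 (0.0542).

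Over the 11 arrays, the 3 genes whose level followed Mn1 most closely were Chsy1 (Pearson's r 0.946), which makes chondroitin sulphate, Runx3 (0.944), a RUNX transcription factor that binds DNA with CBFB, and Csgalnact2 (0.934), another enzyme of chondroitin sulphate synthesis. These correlations describe arrays that share groups and batches. Around the group means they were 0.660, 0.646 and 0.796. Runx3 measured 8.28, 8.36 and 8.97 in INV16 (replicate 4 at 8.86), 10.20, 9.96 and 9.93 in ACD mutant, and 10.59, 10.29, 10.28, 9.68 and 10.12 in MIB control. Like Mn1, it was lower on every INV16 array than on any array of the other groups, and it fell by 1.65 on the log2 scale against MIB control (SE 0.19, adjusted p = 0.00200) and by 1.49 against ACD mutant (SE 0.22, adjusted p = 0.00624). Against ACD mutant the call was lost with all 12 arrays (-1.41, adjusted p = 0.0614) and in the fit that blocks on the batch (-1.98, 0.0667). A second Runx3 set (mean level 6.19) gave -0.16 and -0.24, and the mean of both sets -0.91 and -0.87, both called.

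**Figure D2:**
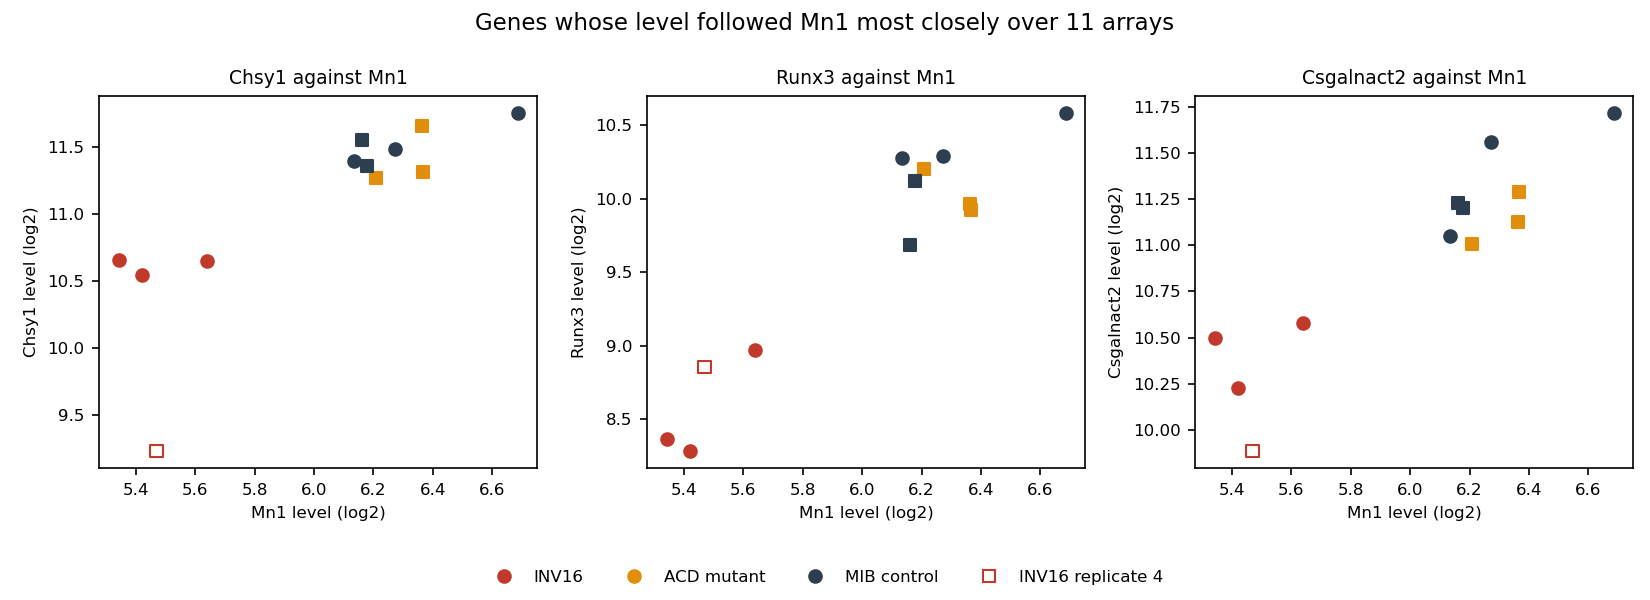
Level (log2) of Chsy1, Runx3 and Csgalnact2 against that of Mn1 on each array, coloured by group, with circles for spike-in batch A, squares for batch B and an open square for INV16 replicate 4. The INV16 arrays form the low end of each plot, and the ACD mutant and MIB control arrays overlap.

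RefSeq promoter windows (GRCm38.p6, from 250 bases before to 50 after the transcript start) are shown for Runx3, whose level followed Mn1 and which has 2 listed promoters, and for the family member Plagl1. Core binding factor binds sequences around TGTGGT, and capitals mark each match on either strand (TGTGGT, or ACCACA for a match on the opposite strand). The motif occurs in 16.8% of 32851 windows of this length. The Runx3 window at chr4:135120395-135120694 (plus strand) holds it 2 times and its other window holds 0. Plagl1 (chr10:13090582-13090881, plus strand) and Ogg1 (chr6:113326726-113327025, plus strand) hold 0, as do the windows of Chsy1 and Csgalnact2. Il1rl1 holds 1 in its window at chr1:40439379-40439678 (plus strand) and 0 in its other window. Among genes whose level followed Plagl2, Ogg1 or Id1, Tmem63a holds 1, and Synm, Vkorc1, Myd88 and Strada hold 0. The windows of Mn1, Plag1, Plagl2 and Id1 were not analysed here. A match is a stretch of letters and shows no binding.
Runx3: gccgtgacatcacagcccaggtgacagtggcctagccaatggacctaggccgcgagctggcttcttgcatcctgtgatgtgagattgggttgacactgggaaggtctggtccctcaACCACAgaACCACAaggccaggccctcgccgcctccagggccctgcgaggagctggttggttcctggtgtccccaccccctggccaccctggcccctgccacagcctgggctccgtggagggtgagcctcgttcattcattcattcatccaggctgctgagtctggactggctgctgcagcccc
Plagl1: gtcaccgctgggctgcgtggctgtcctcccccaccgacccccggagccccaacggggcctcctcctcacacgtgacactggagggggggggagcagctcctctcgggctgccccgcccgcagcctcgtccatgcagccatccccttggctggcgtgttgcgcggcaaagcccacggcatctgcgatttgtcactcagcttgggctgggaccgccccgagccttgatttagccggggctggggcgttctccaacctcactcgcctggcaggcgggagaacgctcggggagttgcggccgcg

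Plagl2 (chr2:153227769-153241358), a PLAG factor that activates growth genes, was lower in INV16 than in ACD mutant on all 4 of its probe sets, and the difference was called on 1. On 1417517_at, the set used for the gene, it measured 8.13, 8.23 and 8.10 in INV16 (replicate 4 at 7.78), 8.80, 8.86 and 9.14 in ACD mutant, and 8.35, 8.45, 8.47, 8.88 and 8.74 in MIB control. The INV16 arrays were below all others, and the ACD mutant arrays overlapped the upper end of MIB control. Plagl2 fell by 0.78 in INV16 against ACD mutant (SE 0.15, limma adjusted p = 0.0207), a 1.72-fold difference.

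Against MIB control, Plagl2 was at -0.42 in INV16 (95% interval -0.71 to -0.14, adjusted p = 0.140) and at 0.36 in ACD mutant (0.07 to 0.64, adjusted p = 0.155), and neither was called. The INV16 and MIB control groups did not overlap, as for 9.23% of all genes tested. MIB control itself differed by batch, at 8.74 to 8.88 in batch B and 8.35 to 8.47 in batch A. Blocking on the batch moved INV16 against ACD mutant to -0.39 (adjusted p = 0.396). It was -0.87 with all 12 arrays (adjusted p = 0.0931), and was not called without INV16 replicate 1 (0.0755) or 2 (0.0638) or ACD mutant replicate 2 (0.0801) or 3 (0.0690).

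The probe sets of Plagl2 differed in size, and in sign against MIB control. The other bright set, 1417519_at, measured 8.32, 8.59 and 8.30 in INV16 (replicate 4 at 7.35), 8.66, 8.73 and 9.01 in ACD mutant, and 8.67, 8.33, 7.81, 8.16 and 8.17 in MIB control. On it INV16 lay inside the range of MIB control, and the ACD mutant arrays were the highest but for an overlap with MIB control replicate 3. ACD mutant against MIB control was 0.57 (SE 0.16, adjusted p = 0.108 over all 34945 probe sets), and INV16 against MIB control was 0.18 (adjusted p = 0.738). Against ACD mutant INV16 was at -0.39 (adjusted p = 0.338) without overlap of the groups, as for 23.2% of all probe sets. Without MIB control replicate 3 the difference of ACD mutant from MIB control was 0.68 and called (adjusted p = 0.0424). The remaining sets, 1417518_at (4.76 to 5.52) and 1442235_at (5.31 to 6.38), overlapped among the groups, with INV16 against ACD mutant at -0.15 and -0.22. On 1442235_at the INV16 mean was 5.742, against 5.719 in the MIB control of batch A. The ACD mutant mean was 5.957, against 6.263 in the MIB control of batch B. Relative to the controls of its batch, INV16 was thus not below ACD mutant on this set, as it was on the others. Averaging the 4 sets gave -0.38 for INV16 against ACD mutant (adjusted p = 0.133). The level of 1417519_at had an r of 0.357 with 1417517_at over 11 arrays.

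The genes most like Plagl2 over the 11 arrays were Snx27 (r 0.960), an endosomal sorting protein, Vkorc1 (0.948), the enzyme that recycles vitamin K, and Fam210a (0.946). Around the group means these were 0.872, 0.754 and 0.744. The second probe set of Snx27 was at 0.57 in INV16 against ACD mutant, where the set used was at -0.48. For Fam210a 3 other sets were at 0.21 to 0.37, where the set used was at -0.62.

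Plagl1 and Plag1 were both below the filter and were examined only in the fit of all 34945 single-symbol probe sets, where 0.901% were called in INV16 against MIB control, 0.953% in ACD mutant against MIB control and 0.793% in INV16 against ACD mutant. Plagl1 set 1426208_x_at measured 4.69, 5.08 and 4.84 in INV16 (replicate 4 at 4.20), 5.89, 5.48 and 5.42 in ACD mutant, and 4.14, 4.48, 4.23, 4.27 and 5.36 in MIB control. The ACD mutant arrays were above all others, and MIB control replicate 7 was the one control near them. ACD mutant and MIB control did not overlap for 10.2% of all probe sets. ACD mutant against MIB control was 1.099 (SE 0.24, 95% interval 0.59 to 1.61), with a limma adjusted p of 0.0515, just above the threshold. Without MIB control replicate 7 it was 1.31 and called (adjusted p = 0.00413), and it was also called after quantile normalisation (0.0456). Within batch B alone, where 0.341% of genes past the filter were called, it was 0.78 (adjusted p = 0.239). INV16 differed from MIB control by 0.38 (adjusted p = 0.569), and within batch A its 3 arrays had a mean of 4.87, against 4.28 for the 3 controls. INV16 differed from ACD mutant by -0.72 (adjusted p = 0.217), which was called without MIB control replicate 7 (0.0398) and moved to -0.20 in the fit that blocks on the batch (0.930).

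The other Plagl1 sets did not show this pattern. Set 1438588_at was at 4.83 to 5.17 and set 1450533_a_at at 3.70 to 4.09 on the 11 arrays (INV16 replicate 4 at 5.61 and 4.15), and their ACD mutant against MIB control differences were -0.07 and -0.04. Sets whose names end in x may hold probes that match other transcripts.

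Plag1, the family member known for activation by translocation in salivary gland tumours, was low on every array. Its sets lay at 3.78 to 4.26 (1421745_at) and 3.76 to 4.32 (1443943_at). On 1443943_at INV16 measured 4.02, 3.99 and 4.24 (replicate 4 at 3.99), ACD mutant 4.32, 4.08 and 4.04, and MIB control 3.98, 3.76, 3.85, 3.90 and 3.86. Both fusion groups were above every control on this set, by 0.22 in INV16 (adjusted p = 0.378) and 0.28 in ACD mutant (adjusted p = 0.180), and neither was called. The non-overlap of groups was seen for 7.19% and 10.2% of probe sets in those comparisons. The other set gave 0.07 and -0.00.

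**Figure D3:**
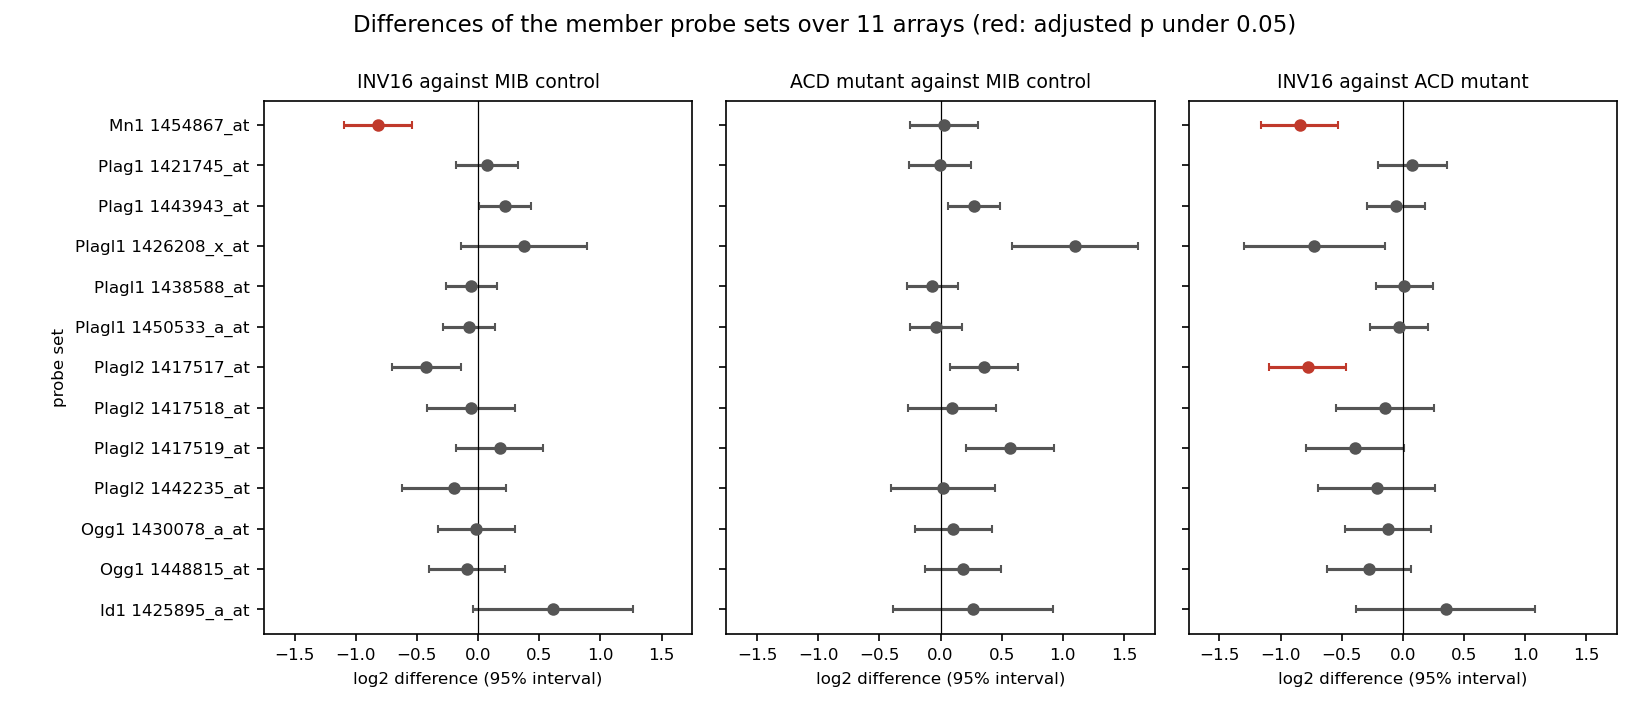
Log2 difference with its 95% interval for the 13 probe sets in INV16 against MIB control, ACD mutant against MIB control and INV16 against ACD mutant, from the limma fit of every probe set over 11 arrays, with red for an adjusted p under 0.05. Red marks Mn1 in both comparisons of INV16 and Plagl2 set 1417517_at in INV16 against ACD mutant.

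Ogg1 (chr6:113326972-113334877) showed no called difference. Set 1430078_a_at measured 7.15, 6.92 and 7.11 in INV16 (replicate 4 at 7.45), 7.38, 7.03 and 7.12 in ACD mutant, and 6.98, 6.89, 6.81, 7.25 and 7.44 in MIB control. The groups overlapped throughout. INV16 against MIB control was -0.02 (95% interval -0.34 to 0.30, limma adjusted p = 0.969), ACD mutant against MIB control 0.10 (-0.22 to 0.42, 0.778) and INV16 against ACD mutant -0.12 (-0.48 to 0.24, 0.742). MIB control was higher in batch B (7.25 and 7.44) than in batch A (6.81 to 6.98). The second set, 1448815_at, lay at 4.98 to 5.71 and had an r of 0.697 with the first. Its INV16 arrays were below its ACD mutant arrays, at -0.27 (adjusted p = 0.457), and such groups were seen for 23.2% of probe sets. The genes most like Ogg1 were Map1lc3a (r 0.942), an autophagosome protein, the intermediate filament gene Synm (0.925) and Tmem63a (0.901).

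Id1 (chr2:152736251-152737410) was the most variable member past the filter. It measured 8.31, 8.93 and 8.34 in INV16, 7.85, 8.22 and 8.46 in ACD mutant, and 7.04, 7.53, 8.20, 8.67 and 8.12 in MIB control. INV16 replicate 4, at 6.56, was below every other array. The group means were 8.53 ± 0.35 in INV16 (SD, n = 3), 8.18 ± 0.31 in ACD mutant (SD, n = 3) and 7.91 ± 0.63 in MIB control (SD, n = 5). INV16 against MIB control was 0.62 (SE 0.30, 95% interval -0.03 to 1.26, limma adjusted p = 0.341), and ACD mutant against MIB control was 0.26 (-0.38 to 0.91, 0.704). When 1 array was left out, these differences ran from 0.40 to 0.80 and from 0.05 to 0.45. INV16 against ACD mutant was 0.35 (-0.37 to 1.07, adjusted p = 0.615), and 1.15 in the fit that blocks on the batch.

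The controls of Id1 overlapped between batches, at 8.12 and 8.67 in batch B and 7.04 to 8.20 in batch A. Within batch A the INV16 mean was above that of the controls by 0.94, with a limma adjusted p of 0.219 over those 6 arrays. Blocking on the batch also gave 0.94 (adjusted p = 0.125), and with all 12 arrays 0.12 (0.871). Id1 was most like Strada (r 0.937), a pseudokinase partner of the kinase LKB1, Myd88 (0.916), an adaptor of IL-1 and Toll-like receptors, and the growth factor gene Hbegf (0.900). The second Hbegf set was at -0.19 in INV16 against MIB control, where the set used was at 0.22.

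Genes linked to the members were taken from lists chosen with earlier results of these data known. Of 21 tested genes of CBFB-MYH11 leukaemia and its preleukaemic phase, INV16 against MIB control called 1 higher and 3 lower, where 1.64% of all genes tested were called. The list median was -0.06, against -0.03 over all genes tested. The chromatin remodeller Chd7 measured 7.38, 7.69 and 7.82 in INV16, against 6.77 to 7.01 in MIB control, and rose by 0.75 (SE 0.12, adjusted p = 0.00995). INV16 replicate 4, at 6.90, lay among the controls, and with 12 arrays the difference was 0.57 (adjusted p = 0.258). The second Chd7 set gave 0.21, the mean of both sets 0.48 (adjusted p = 0.0843), and batch A alone 0.75 (0.0838). The survival gene Bcl2 measured 9.80, 9.49 and 9.81 in INV16, against 10.10 to 10.61 in MIB control, and fell by 0.70 (SE 0.14, adjusted p = 0.0254). Its replicate 4 value of 10.35 was inside the control range, and the 12-array difference was -0.54 (adjusted p = 0.269).

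Cebpa, a transcription factor needed for granulocyte formation, measured 8.47, 8.49 and 8.69 in INV16 (replicate 4 at 5.87), against 9.01 to 9.84 in MIB control. It fell by 0.91 (SE 0.21, adjusted p = 0.0490), and blocking on the batch left -0.70 (adjusted p = 0.116). The Runx3 values above complete the 4 called genes. Runx3 kept its call in both comparisons without each of the 11 arrays in turn. Chd7 was not called without INV16 replicate 2 (adjusted p = 0.0529), and Bcl2 was not called without INV16 replicate 1 (0.103), INV16 replicate 2 (0.117) or MIB control replicate 5 (0.0640). Cebpa was called in 3 of those 11 fits, those without ACD mutant replicate 3 (0.0284) or without replicate 4 (0.0393) or 5 (0.0401) of MIB control. In ACD mutant against MIB control limma called 0 of the 21, with Csf2rb, the shared receptor chain of IL-3 and GM-CSF, nearest at 0.60 (unadjusted p = 0.00877, adjusted p = 0.114). Without MIB control replicate 7 it was 0.74 and called (0.0228), and in the fit that blocks on the batch it was 0.27 (0.540). In INV16 against ACD mutant Runx3 was the 1 gene called, where 2.04% of all genes tested were. This call was lost with 12 arrays and in the fit that blocks on the batch.

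**Figure D4:**
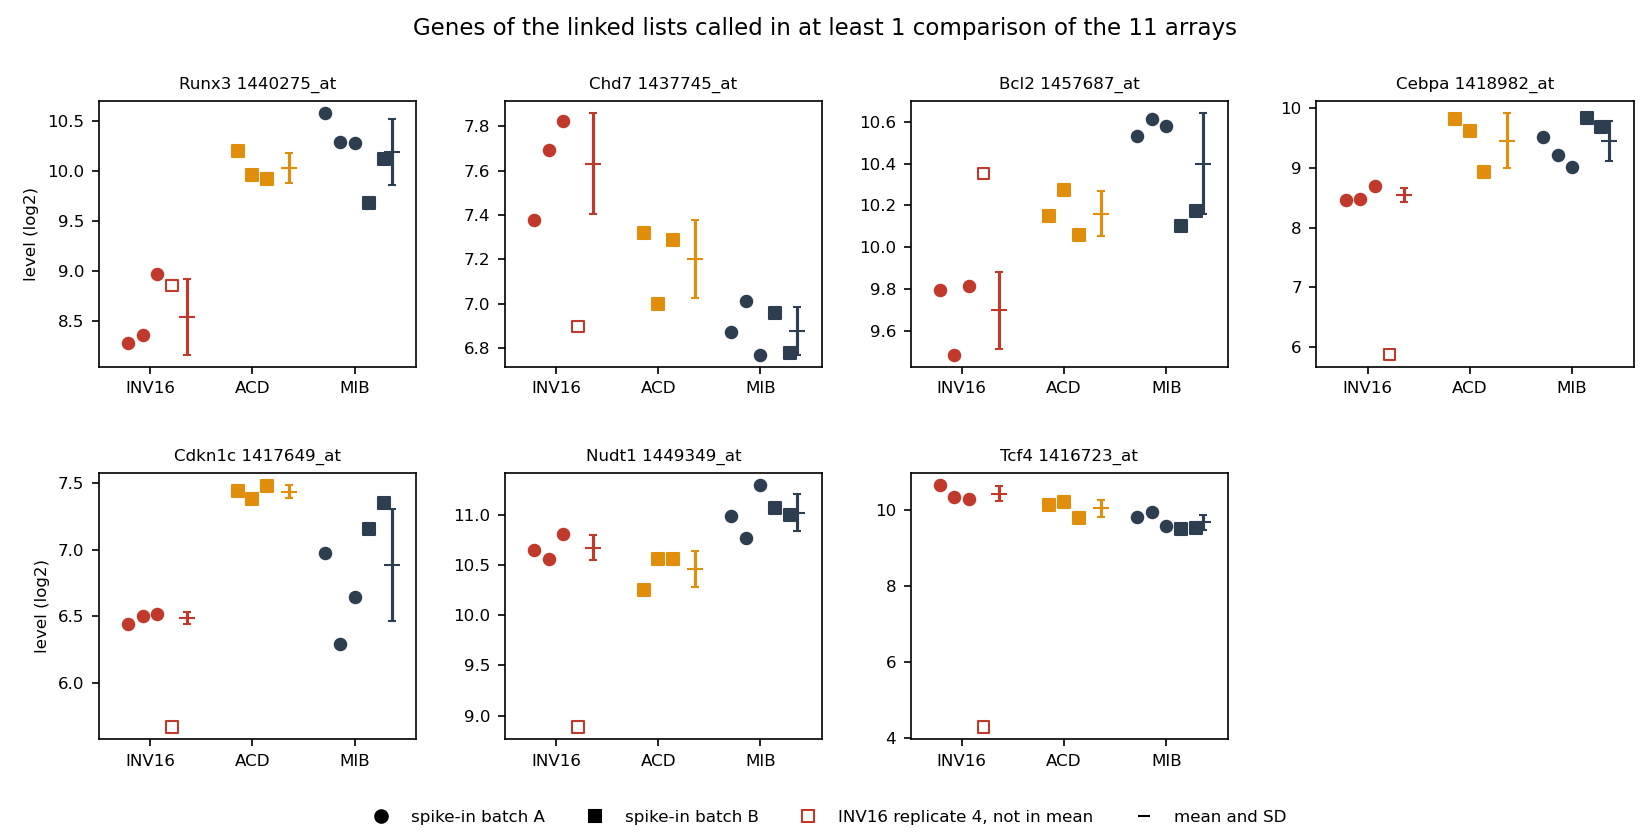
Level (log2) on every array of the 7 genes of the linked lists called in at least 1 comparison, with circles for spike-in batch A, squares for batch B, an open square for INV16 replicate 4, and a bar for the mean and SD of the other arrays. Runx3, Bcl2 and Cebpa were lower and Chd7 and Tcf4 higher in INV16 than in MIB control, and replicate 4 of INV16 left that pattern for Chd7, Bcl2 and Tcf4.

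Of 10 tested MN1 partners, which include cofactors that bind MN1 and genes of its leukaemia programme, limma called 0 in each comparison. The smallest p in INV16 against MIB control was that of the histone methyltransferase gene Dot1l (0.32, unadjusted p = 0.0168, adjusted p = 0.203), at 0.08 to 0.42 over the alternatives. In ACD mutant against MIB control it was that of Etv6, which fuses with MN1 in human leukaemia (0.31, unadjusted p = 0.00703, adjusted p = 0.106), at 0.12 to 0.66 over the alternatives. In INV16 against ACD mutant it was that of the homeobox gene Meis1 (-0.76, unadjusted p = 0.00514, adjusted p = 0.0942), which was at -0.39 in the fit that blocks on the batch (adjusted p = 0.673) and at -1.39 with 12 arrays (0.336).

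Of 8 tested growth and imprinted genes linked to the PLAG family, 1 was called, in INV16 against ACD mutant, where 2.04% of all genes tested were. Cdkn1c, an imprinted inhibitor of the cell cycle, measured 6.44, 6.51 and 6.52 in INV16 (replicate 4 at 5.67), against 7.44, 7.38 and 7.48 in ACD mutant, and fell by 0.95 (SE 0.21, adjusted p = 0.0406). Its MIB control values ran by batch, at 7.16 and 7.35 in batch B and 6.29 to 6.98 in batch A, and blocking on the batch moved the difference to -0.33 (adjusted p = 0.587). It was called in 4 of the 11 fits that left out 1 array, those without MIB control replicate 3, 4, 6 or 7. The same list had Cdkn1c at -0.40 in INV16 against MIB control (adjusted p = 0.330) and the growth factor receptor adaptor Grb10 at 0.44 in ACD mutant against MIB control (adjusted p = 0.0980, or 0.0462 without INV16 replicate 3) as its smallest p-values. The first of these was -0.15 in the fit that blocks on the batch.

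In the IL-33 receptor pathway limma called 0 of 9 tested genes in each comparison, and the receptor Il1rl1 itself was not analysed here. The smallest p-values belonged to the IL-18 receptor chain Il18rap in INV16 against MIB control (0.38, unadjusted p = 0.00812, adjusted p = 0.150), the IL-1 receptor Il1r1 in ACD mutant against MIB control (-0.66, unadjusted p = 0.00461, adjusted p = 0.0895) and the signalling inhibitor Irak3 in INV16 against ACD mutant (-0.37, unadjusted p = 0.0209, adjusted p = 0.177). Irak3 was at -0.10 in the fit that blocks on the batch (adjusted p = 0.876), and Il18rap at -0.47 with 12 arrays (0.629).

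Of 14 tested genes of base excision repair, the pathway of OGG1, 1 was called, in ACD mutant against MIB control, where 1.68% of all genes tested were. Nudt1, which clears oxidised nucleotides, measured 10.26, 10.56 and 10.56 in ACD mutant, against 10.98, 10.77, 11.29, 11.07 and 11.0003 in MIB control, and fell by 0.56 (SE 0.13, adjusted p = 0.0462). Its INV16 arrays, at 10.56 to 10.81, overlapped both groups, and replicate 4 measured 8.88. The call held in 3 of 11 fits that left out 1 array, those without MIB control replicate 4 or 7 or INV16 replicate 3. Blocking on the batch gave -0.57 (adjusted p = 0.117). The DNA glycosylase gene Smug1 had the smallest p in INV16 against MIB control (-0.30, adjusted p = 0.141), and Neil3, another glycosylase gene, in INV16 against ACD mutant (0.31, adjusted p = 0.282, and 0.12 in the fit that blocks on the batch).

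Of 14 tested genes of the ID and E proteins and of the BMP route that induces Id1, 1 was called. This was in INV16 against MIB control, where 1.64% of all genes tested were called. Tcf4, an E protein, measured 10.64, 10.34 and 10.28 in INV16, against 9.81, 9.93, 9.58, 9.50 and 9.52 in MIB control, and rose by 0.75 (SE 0.14, adjusted p = 0.0170). INV16 replicate 4, at 4.28, was far below all other arrays, and with 12 arrays the difference turned to -0.78 (adjusted p = 0.650). It was 0.65 in the fit that blocks on the batch (adjusted p = 0.0536). It was not called without INV16 replicate 1 (0.130) or 2 (0.0603). In ACD mutant against MIB control Tcf4 had the smallest p of this list (0.37, adjusted p = 0.159). Smad7, which inhibits BMP and TGF-beta signalling, had the smallest p in INV16 against ACD mutant (-0.49, adjusted p = 0.112), and was at -0.15 in the fit that blocks on the batch (0.814).

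The median log2 difference of all genes tested was -0.03 in INV16 against MIB control, 0.01 in ACD mutant against MIB control and -0.03 in INV16 against ACD mutant. In the same order of comparisons the leukaemia list was at -0.06, 0.06 and -0.15, the MN1 partners at 0.07, 0.26 and -0.04, and the PLAG-linked genes at -0.27, 0.11 and -0.37. The IL-33 pathway was at -0.13, 0.01 and -0.15, base excision repair at -0.05, 0.01 and -0.13, and the ID, E protein and BMP list at 0.24, 0.20 and 0.12. In the fit that blocks on the batch the ID, E protein and BMP list was at 0.09, 0.17 and -0.10 and the PLAG-linked genes at -0.10, 0.05 and -0.31, and in ACD mutant against MIB control the IL-33 pathway was at -0.04 and base excision repair at -0.06. With 12 arrays the ID, E protein and BMP list was at 0.06, 0.20 and 0.03. These medians describe small lists and carry no test.

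Markers of other cell types were measured beside these results. The summed mast cell and basophil level was 12.24 to 12.63 log2 in INV16, 13.2 to 13.28 in ACD mutant and 12.51 to 13.31 in MIB control. Of its 7 markers past the filter, Cpa3 and Ms4a2 were called lower in INV16 against ACD mutant (-1.45 and -2.01), where 2.04% of all genes tested were called. Hdc was called higher in ACD mutant against MIB control (1.56), where 1.68% were. With 12 arrays, and with the batch as a block, limma called 0 markers of this list in either comparison. The list median in INV16 against ACD mutant was -0.71, and -0.35 with the block. Mcpt8 was the 1 of the 7 that was higher in INV16 (mean 9.74, against 9.57 in ACD mutant). The summed erythroid level was 8.321 to 8.467 in INV16, 8.645 to 9.014 in ACD mutant and 8.022 to 8.898 in MIB control, and INV16 against ACD mutant was -0.62 for Klf1 (adjusted p = 0.117) and -0.54 for Epor (0.232). The median of these 2 genes was -0.58, and -0.008 in the fit that blocks on the batch, where 1 of the 2 was above 0.

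The summed neutrophil level, which Mpo, Prtn3 and Ctsg dominate, was 14.6 to 15.1 in INV16, 14.77 to 15.14 in ACD mutant and 14.71 to 15.52 in MIB control. In INV16 against MIB control the median of its 8 tested markers was -0.46, and 1 was called, where 1.64% of all genes tested were. S100a8, a calcium-binding protein of neutrophils, was at 5.03 to 5.48 in INV16, 6.54 to 7.34 in ACD mutant and 6.97 to 10.28 in MIB control, and fell by 3.08 in INV16 against MIB control (adjusted p = 0.0147). S100a9 was at -2.20 in the same comparison and was not called (adjusted p = 0.0638). The S100a8 value of 10.28 was that of MIB control replicate 6, and the other controls were at 6.97 to 8.72. With 12 arrays, and with the batch as a block, limma called 0 of the 8 markers in INV16 against MIB control. The block moved their median to -0.30.

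Single markers of other lists were called in INV16 against MIB control, where 1.64% of all genes tested were. Among lymphoid markers Nkg7 fell by 0.73 while the median of the 5 tested was 0.04, so the lower sum in INV16 (10.34 to 10.46, against 10.64 to 11.16 in MIB control) was that of 1 bright gene. Among stromal markers Pdgfrb fell by 1.101 while the median of the 4 tested was 0.19. Gata3 of the group 2 innate lymphoid list rose by 0.99, and Procr of the sorted progenitor list by 1.48. The part of these markers, of the Gapdh 3' minus 5' difference and of the spike-in levels in the differences of Mn1 and Plagl2 was not tested.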

How the data were processed

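The log2 values of 45101 probe sets were deposited by the authors already summarised and scaled. The sources used here do not give the method, and the log2 scale was read from the values (2.82 to 14.97, array medians 5.62 to 5.79). Low values can be compressed on such scales, so differences of dim genes may be understated, which was not tested. Array number limits the precision.

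GEO's annotation of the platform gave 1 symbol for 34945 probe sets, several for 932 and none for 9160, and 64 were controls. Single-symbol sets past the 40th percentile of means over 11 arrays were kept, 1 per gene by highest mean. Limma 3.58.1 (R 4.3.3) fitted 3 group means with eBayes (residual df 8, prior df 5.01), two-sided, with Benjamini-Hochberg adjustment over 12897 genes. A second fit took every single-symbol probe set. The script was tested on simulated data.

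The members and lists were chosen with earlier results of these data known. Genes named besides the members were, per list, up to 4 called genes by smallest p or else the 1 with the smallest p, the 3 genes most correlated with each member past the filter, and markers that touch a result. Alternatives were all 12 arrays, leaving out each array, the spike-in batch (limit 0.5) as a block or within it, 2 groups only, other filters, averaged probe sets, quantile normalisation, an intensity trend and a replicate block. Replicate numbers shared by INV16 and ACD mutant gave no sign of pairing the arrays.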

Additional observations from a re-analysis of the deposited data

Results flagged for a closer look

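In 3 of the 26 groups of 4 or 5 arrays examined, 1 array lay far from the others by Dixon's criterion at 95%, which chance passes in about 1 of 20 groups. Mn1 measured 6.69 in MIB control replicate 3, against 6.14 to 6.27 in the other controls. Plag1 set 1443943_at measured 4.24 in INV16 replicate 3, against 3.99 to 4.02 in the other INV16 arrays, replicate 4 included. Plagl1 set 1426208_x_at measured 5.36 in MIB control replicate 7, against 4.14 to 4.48 in the other controls.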

How the results depend on the processing

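Calls depended strongly on which arrays were used. The number of genes called in INV16 against MIB control (211 over 11 arrays) was 20 with 12 arrays, 129 with the batch as a block, 73 with both, 38 for every probe set on 12 arrays, 93 with 2 groups only, 30 within batch A, and 27 to 326 when 1 array was left out. In ACD mutant against MIB control (217) limma called 0 with 12 arrays (891 at an unadjusted p under 0.05), 20 with the batch block, 0 with both, 5 for every probe set on 12 arrays, 72 with 2 groups only, 44 within batch B, and 3 to 579 when 1 array was left out. In INV16 against ACD mutant (263) it called 5 with 12 arrays, 0 with the batch block (1489 at an unadjusted p under 0.05), 4 with both, 19 for every probe set on 12 arrays, 837 with 2 groups only, 172 with averaged probe sets, and 36 to 499 when 1 array was left out. Members called in INV16 against MIB control (1) numbered 0 with the 60th percentile filter, under which Mn1 was not tested, 0 within batch A, and 0 to 1 when 1 array was left out. In INV16 against ACD mutant (2) they numbered 0 with 12 arrays, 0 with the batch block, 0 with both, 0 for every probe set on 12 arrays, 1 with the 60th percentile filter, 1 with averaged probe sets, and 0 to 2 when 1 array was left out. They stayed at 0 in ACD mutant against MIB control under all 23 alternatives. Mn1 kept its direction in both INV16 comparisons under all 22 alternatives that tested it, at -0.91 to -0.72 against MIB control (adjusted p 0.00617 to 0.0757) and -1.04 to -0.78 against ACD mutant (0.00666 to 0.155). Plagl2 kept its direction against ACD mutant under 23, at -0.87 to -0.38 (adjusted p 0.0108 to 0.396). The cause of the lost calls was not tested.

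Several small differences changed sign. Ogg1 in INV16 against MIB control (-0.02) was 0.081 with 12 arrays and for every probe set on them, 0.17 with the batch block and within batch A, 0.15 with 12 arrays and the block, 0.015 after quantile normalisation, and -0.083 to 0.076 when 1 array was left out. Ogg1 in ACD mutant against MIB control was -0.17 with the batch block and within batch B, -0.15 with 12 arrays and the block, and -0.00016 to 0.20 when 1 array was left out. Ogg1 in INV16 against ACD mutant was 0.34 with the batch block and 0.30 with 12 arrays and the block. Mn1 in ACD mutant against MIB control ran from -0.012 to 0.13 when 1 array was left out. Id1 in ACD mutant against MIB control was -0.22 with the batch block and within batch B, and in INV16 against ACD mutant -0.14 with 12 arrays and for every probe set on them and -0.34 with 12 arrays and the block. Tcf4 in INV16 against MIB control was -0.78 with 12 arrays and for every probe set on them and -1.16 with 12 arrays and the block, and Il18rap was -0.47, -0.47 and -0.66. INV16 and ACD mutant share replicate numbers 1 to 3, but same-numbered arrays deviated with correlations of -0.16, -0.18 and -0.31. These give no sign of pairing, though 3 arrays per group in different batches cannot settle it. With the replicate block, limma called 354 genes and 2 members, with Mn1 at -0.84 (adjusted p = 0.0200) and Plagl2 at -0.78 (0.0329), Ogg1 at -0.12 and Id1 at 0.35.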
